A study of Mus musculus with 4 samples.

Results

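Granzymes A, B, C, D, E, F and K, perforin and the granule protein Nkg7 form the killing machinery of natural killer (NK) cells and CD8 T cells. These 9 genes (Gzma, Gzmb, Gzmc, Gzmd, Gzme, Gzmf, Gzmk, Prf1 and Nkg7) were chosen by name and were read in every annotated cell class. All 9 were present, among 13071 genes in the joint table of B16 and LLC tumours and among 12801 genes in a table of B16 tumours alone. The lymphocyte classes that carry the genes are described first, and the non-lymphoid classes serve as background.

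The material was single-cell RNA-seq on the 10x Genomics platform of subcutaneous B16 (melanoma) and LLC (Lewis lung carcinoma) tumours in mice. The B16 library came from C57BL/6J mice. A CITE-seq library of LLC tumours, in which RNA is read together with antibody tags, also came from C57BL/6J mice and was used for monocytes and macrophages only. The LLC library of the joint table came from mice labelled F11r fl/fl LysM-Cre-, which carry a floxed F11r gene and no Cre recombinase. The labels name no treatment and no age. Each library was a pool of tumours from 3 mice, so each group had 1 library, and tumour type, strain and library cannot be told apart. No test was therefore possible and no p-value is given. Intervals are exact 95% intervals that cover counting error only.

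In the joint table the B16 library held 6870 cells with a median of 8315 unique molecular identifiers (UMIs, each standing for 1 captured RNA molecule) per cell. The LLC library held 13021 cells with a median of 6174. Levels are UMIs of a gene summed over the cells of a class scaled to 1000000 UMIs of that class (CPM). The words higher and lower are used for ratios of at least 1.5-fold, a rule of size alone, and a gene counts as measured with at least 20 UMIs over both sides. The 2 libraries of the joint table shared 29 cell barcodes.

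Cytotoxic lymphocytes kill by releasing granules at the contact with a target cell. Perforin inserts into the target membrane and forms pores through which the granzymes, a family of serine proteases, reach the cytosol and cleave their substrates. Nkg7 is a protein of the granule membrane that takes part in degranulation. Before release, granzymes are bound to the proteoglycan serglycin (Srgn) and are activated by cathepsin C (Ctsc), and the serpin encoded by Serpinb9 protects the killer cell from its own granzyme B. Gzmc, Gzmd, Gzme and Gzmf belong to a group of granzymes found in rodents, and their substrates are less well known than those of granzymes A and B.

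All 9 are protein-coding genes, and the tables give 1 count per gene with no exon or isoform resolved. In mm10 with the GENCODE vM21 annotation, 5 members lay in 1 cluster on the minus strand of chromosome 14 within 144635 bases, with Gzmg, which is no member, between Gzmd and Gzmf. These were Gzme (chr14:56117626-56120625), Gzmd (chr14:56129556-56132608), Gzmf (chr14:56205263-56211417), Gzmc (chr14:56231441-56234656) and Gzmb (chr14:56258838-56262260). Gzma (chr13:113093825-113100981) and Gzmk (chr13:113171608-113225908) formed a pair on the minus strand of chromosome 13. Prf1 (chr10:61297833-61304680) and Nkg7 (chr7:43437073-43438249) lay alone, both on the plus strand.

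The sequences in front of the 5 members of the chromosome 14 array are shown. Gzmc to Gzmf were all lower in dividing than in other CD8 T cells of B16, while Gzmb was within the 1.5-fold range. The 150 bases before each gene's RefSeq start are given, build GRCm38.p6, minus strand, read 5′ to 3′. Capitals mark TGTGGT, a core motif of Runx factors, TGACGTCA, the palindrome bound by CREB and ATF factors, and the matching octamer where a gene differs from it.
Gzmb: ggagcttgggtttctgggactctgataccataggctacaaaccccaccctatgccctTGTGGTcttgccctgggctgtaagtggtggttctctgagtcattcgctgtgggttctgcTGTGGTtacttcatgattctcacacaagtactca
Gzmc: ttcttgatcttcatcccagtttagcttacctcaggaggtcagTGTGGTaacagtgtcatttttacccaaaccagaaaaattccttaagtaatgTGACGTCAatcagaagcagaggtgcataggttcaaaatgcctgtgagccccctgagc
Gzmd: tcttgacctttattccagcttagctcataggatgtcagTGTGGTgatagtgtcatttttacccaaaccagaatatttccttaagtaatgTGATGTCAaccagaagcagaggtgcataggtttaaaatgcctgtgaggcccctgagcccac
Gzme: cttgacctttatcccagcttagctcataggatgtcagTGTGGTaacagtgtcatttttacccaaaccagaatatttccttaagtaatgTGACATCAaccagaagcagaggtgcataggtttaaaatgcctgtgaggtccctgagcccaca
Gzmf: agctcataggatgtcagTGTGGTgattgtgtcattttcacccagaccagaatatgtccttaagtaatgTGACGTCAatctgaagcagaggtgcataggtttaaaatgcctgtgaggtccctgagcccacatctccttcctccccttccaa

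The windows lay at chr14:56262335-56262484 for Gzmb, chr14:56234658-56234807 for Gzmc, chr14:56132594-56132743 for Gzmd, chr14:56120626-56120775 for Gzme and chr14:56211408-56211557 for Gzmf. On the minus strand a gene starts at its higher coordinate, and RefSeq starts can differ from the GENCODE positions above. The Gzmb window began at 56262335, so bases between it and the GENCODE start at 56262260 were not searched. The Gzmd window (from 56132594) and the Gzmf window (from 56211408) reached past their GENCODE starts at 56132608 and 56211417. Gzmc and Gzmf held the full octamer TGACGTCA. Counted from 1 at the octamer's 5′ end and with the base of Gzmc first, the octamer of Gzmd differed by C4T and that of Gzme by G5A. Gzmb held no such octamer in this window. On either strand, TGACGTCA stood in 1.36% of 32851 mouse promoters of the same length and in 2 of the 9 members. TGTGGT stood in 8.40% of those promoters and in 8 of the 9 members, with Gzmk as the exception. A match is a description of letters, not of a bound site. The Gzmd and Gzme windows were 94.7% identical, and the Gzmc and Gzmd windows 85.7%.

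Transcripts of this array are also alike, which bears on every count given for them. Gzmd and Gzme transcripts were 90.4% identical, and 110 of 915 windows of 50 bases of the one occurred in the other. Gzmd and Gzmf shared 83.5%, and Gzme and Gzmf shared 84.8% with no window in common. Gzmc matched these 3 at 70.4% to 71.5%, and Gzmb matched Gzmc to Gzmf at 48.7% to 51.3% with no shared window. The sources used here do not say how reads matching more than 1 gene were counted, so the split between Gzmd and Gzme is uncertain.

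The annotated names were checked against defining markers. NK cells were the first class checked. In all, 276 B16 cells and 131 LLC cells of the joint table were annotated as NK cells, or 4.02% and 1.01% of their libraries, and Ncr1 or Klrb1c, both NK receptors, had a UMI in 271 B16 cells and 126 LLC cells. A T cell marker (Cd3e, Cd3d or Cd3g) was seen in 53 of the 276 and in 22 of the 131. CD8 T cells numbered 787 in B16, all with a T cell marker and 778 with Cd8a or Cd8b1, and only 4 in LLC. Prolif CD8 T cells numbered 437 in B16 and 11 in LLC. Of the 11 LLC cells, 6 had a T cell marker, 5 had Ncr1 or Klrb1c and 1 had Cd8a or Cd8b1, so the name goes partly against the data there. Cells annotated as naive T cells (743 in B16 and 185 in LLC) go partly against their name as well, since Nkg7 was detected in 74.3% of them in B16 and 51.4% in LLC, and Ccr7, a receptor of naive T cells, in 23.0% and 17.8%.

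**Figure D1:**
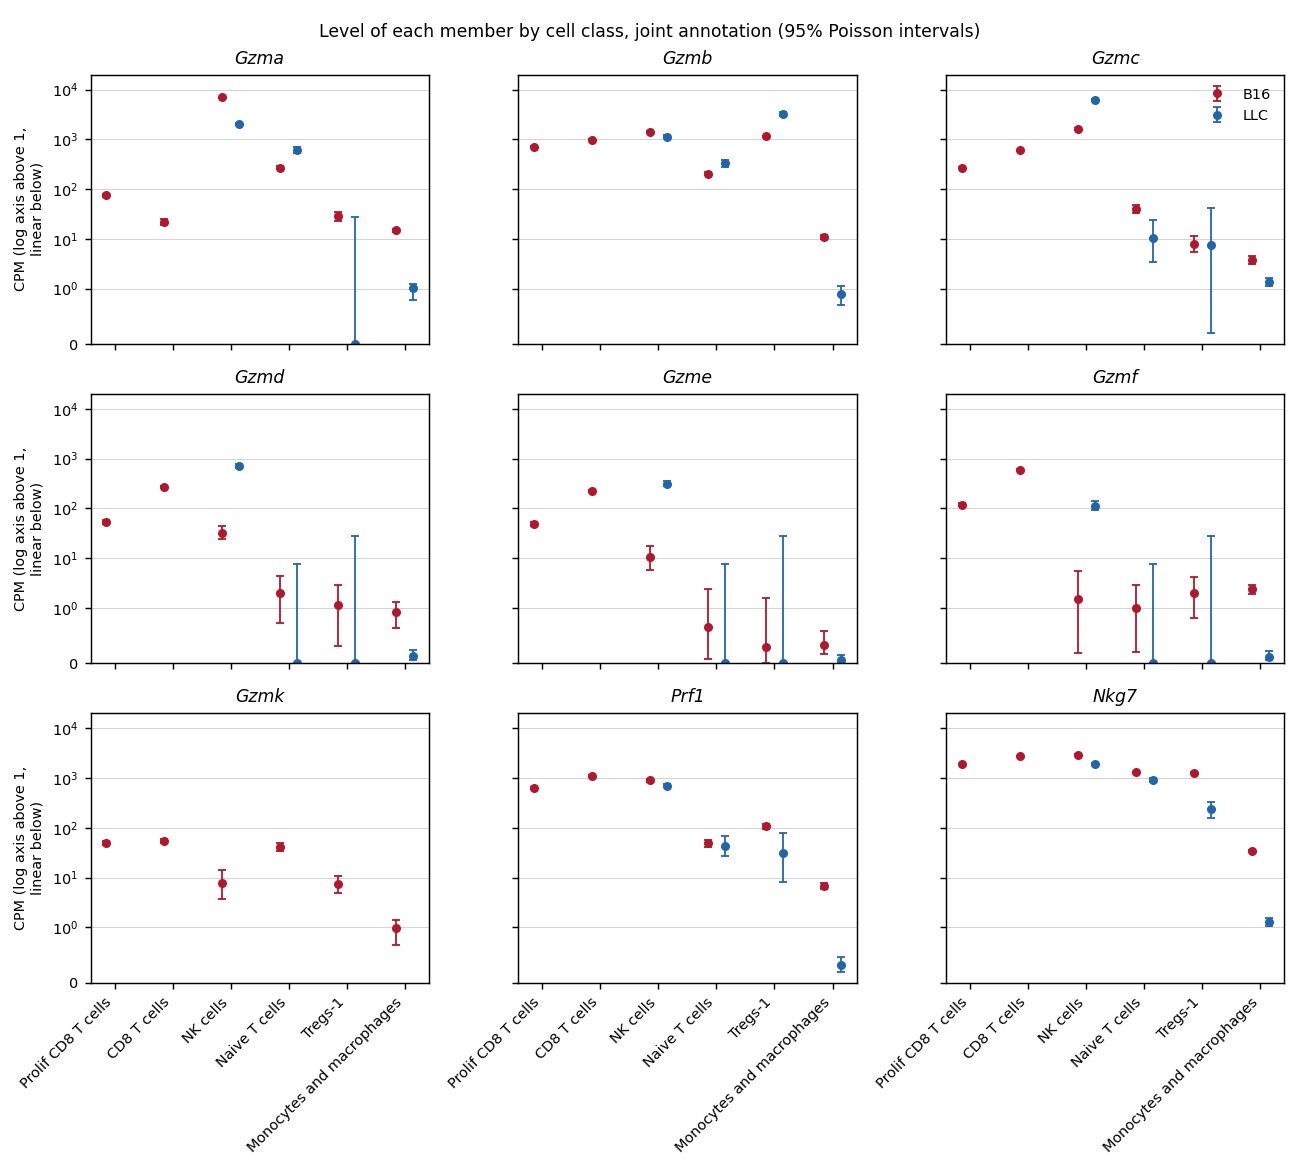
Level of each member by cell class in the joint table, in CPM on an axis that is logarithmic above 1 and linear below, with B16 left of LLC in each class. Bars are exact 95% Poisson intervals, and classes with under 20 cells in a library, as well as Gzmk in LLC, are not drawn. Gzma stands at 6942 CPM in B16 NK cells and at 22.1 CPM in B16 CD8 T cells, while Gzmb spans only 711 to 1394 CPM over Prolif CD8 T cells, CD8 T cells, NK cells and Tregs-1 of B16.

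Across the 19 B16 clusters with at least 50 cells, the members showed 3 patterns. Gzma, a granzyme with tryptase activity, was at 6942 CPM (6799.9 to 7086.0) in NK cells. The next clusters were naive T cells at 266 CPM and B cells at 238 CPM, which overlapped. All 176 Gzma UMIs of B cells were in 5 of 220 cells. Prolif CD8 T cells followed at 74.5 CPM, above Tregs-1, Tregs-2 and CD8 T cells at 28.5, 23.8 and 22.1 CPM, which did not differ beyond their intervals. Gzma was thus highest in NK cells and low in CD8 T cells of the same tumours.

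Gzmb, which cleaves and activates caspases, was spread over more classes. Its level was 1394 CPM in NK cells, 1145 CPM in Tregs-1, 977 CPM in CD8 T cells and 711 CPM in Prolif CD8 T cells, with no overlap between neighbours. Tregs-2 followed at 289 CPM and naive T cells at 205 CPM. Nkg7 was at 2874 CPM in NK cells and 2776 CPM in CD8 T cells, which overlapped, at 1894 CPM in Prolif CD8 T cells, and at 1300 CPM in naive T cells and 1274 CPM in Tregs-1, which overlapped. Prf1 was highest in CD8 T cells at 1118 CPM, followed by NK cells at 889 CPM and Prolif CD8 T cells at 640 CPM, and stood at 106 CPM or less in all other B16 clusters. Tregs-1 therefore carried Gzmb at a level between those of NK and CD8 T cells, with a far lower level of Prf1 than either.

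Gzmd, Gzme and Gzmf led in CD8 T cells of B16, at 272, 222 and 595 CPM. Prolif CD8 T cells came next, at 52.6 CPM for Gzmd, 48.9 CPM for Gzme and 119 CPM for Gzmf. For Gzmf, every further B16 cluster was at 2.98 CPM or less. Gzmc led in NK cells at 1585 CPM, followed by CD8 T cells at 596 CPM and Prolif CD8 T cells at 271 CPM. The Gzmc level of NK cells rested largely on a single cell, described below. Gzmk, a granzyme of memory-like and pre-dysfunctional T cells, was at 54.5 CPM in CD8 T cells, 49.3 CPM in Prolif CD8 T cells and 40.6 CPM in naive T cells, with each neighbour overlapping, and at 7.63 CPM in NK cells.

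In the LLC library, NK cells led the 16 clusters of that size for 8 members. Naive T cells came next for Gzma at 611 CPM, for Gzmb at 328 CPM, for Prf1 at 43.8 CPM and for Nkg7 at 908 CPM. Gzmk had 0 UMIs in all 13021 LLC cells, against 1199 UMIs in the B16 library, and was left out of ratios with LLC. It was 1 of 1517 genes listed at 0 in every LLC cell, of which 471 had at least 100 UMIs in B16, among them Tbx21, Cd96, Gzmg and Gzmm, while 272 genes were listed at 0 in B16. In the separate table of monocytes and macrophages, LLC CITE-seq cells held 8 Gzmk UMIs, B16 cells 7 and LLC cells 0. A gene filter applied to each library before deposit cannot be told apart from absence, so the 0 is not read as a lack of Gzmk in LLC.

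The first comparison set NK cells of B16 tumours against NK cells of LLC tumours. The same cell class carried a different mix of granzymes in the 2 tumours. Gzma was higher in B16, and Nkg7 at the threshold, whereas Gzmc, Gzmd, Gzme and Gzmf were lower, and Gzmb and Prf1 were within the 1.5-fold range. All members together reached almost the same sum, 13736 CPM in B16, against 13169 CPM in LLC. Gzma made up 50.5% of member UMIs in B16 NK cells and 15.6% in LLC NK cells, and Gzmc made up 11.5% in B16 and 47.4% in LLC.

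Gzma was at 6942 CPM in B16 NK cells (9095 UMIs) and at 2059 CPM in LLC NK cells (1478 UMIs), a ratio of 3.37 (3.19 to 3.56). At least 1 Gzma UMI was found in 80.4% of B16 NK cells and 55.0% of LLC NK cells, and in 74.0% and 45.8% after each cell was thinned to 2000 UMIs, which left out 22 B16 and 11 LLC cells below that depth. The median B16 NK cell held 24 Gzma UMIs and the median LLC NK cell 1. Both the level and the share of cells were higher in B16.

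Gzmc was at 1585 CPM in B16 NK cells (2076 UMIs) and at 6239 CPM in LLC NK cells (4479 UMIs), a ratio of 0.254 (0.241 to 0.268). It was found in 49 of 276 B16 cells and 60 of 131 LLC cells, or 17.8% and 45.8%, and in 12.99% and 48.3% after thinning. A single B16 cell held 1106 of the 2076 UMIs, and the highest LLC cell held 505. Without the highest cell of each side the ratio was 0.133. Gzmc was thus lower in B16 both in level and in the share of cells, and its B16 level rested largely on 1 cell.

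Gzmd and Gzme, the neighbouring genes, were found in 2 and 4 of 276 B16 NK cells and in 20 and 17 of 131 LLC NK cells. Gzmd had 43 UMIs in B16 NK cells (32.8 CPM), of which 42 were in 1 cell, and 507 UMIs in 20 LLC NK cells (706 CPM), a ratio of 0.0465 (0.0332 to 0.0635). Gzme had 14 UMIs in 4 B16 NK cells (10.7 CPM) and 227 UMIs in 17 LLC NK cells (316 CPM), a ratio of 0.0338 (0.0182 to 0.0579). Gzmf had 2 UMIs in B16 NK cells and 82 UMIs in LLC NK cells, all of them in 1 cell, so its ratio of 0.0134 (0.00159 to 0.0498) describes that cell.

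Gzmb was at 1394 CPM in B16 NK cells and 1123 CPM in LLC NK cells, a ratio of 1.24 (1.14 to 1.35), and was found in 71.0% and 73.3% of cells. Prf1 was at 889 CPM in B16 NK cells and 703 CPM in LLC NK cells, a ratio of 1.26 (1.14 to 1.41), and was found in 80.4% and 80.9%. Neither gene reached 1.5-fold. Nkg7 was at 2874 CPM in B16 NK cells and 1908 CPM in LLC NK cells, a ratio of 1.51 (1.42 to 1.60), and was found in 99.3% and 98.5% of cells. That ratio sat at the threshold and was below it, at 1.27 to 1.44, under 6 of 9 alternative settings.

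Of the 8 members measured in NK cells, 2 were higher in B16 against 15.5% of all 7354 measured genes, and 4 were lower against 9.31%. The median log2 ratio was −0.83 over the members and 0.10 over all measured genes. Median depth was close, 4032 UMIs per B16 NK cell and 4142 per LLC NK cell. RNA of other cell types was not equal, however. All 6 macrophage markers (among them Lyz2, Apoe and C1qa) were detected in both groups, with a sum of 804 CPM in B16 NK cells and 3457 CPM in LLC NK cells. All 4 neutrophil markers were detected too, with a sum of 56.5 CPM in B16, against 1883 CPM in LLC. Without the 9 B16 and 45 LLC cells that held at least 5 UMIs of Lyz2, Apoe, C1qa and C1qb together, Gzma was still higher in B16 at a ratio of 2.39, and Gzmc, Gzmd and Gzme were still lower at 0.519, 0.0973 and 0.140. The members' own level in LLC monocytes and macrophages was 5.21 CPM in sum.

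**Figure D2:**
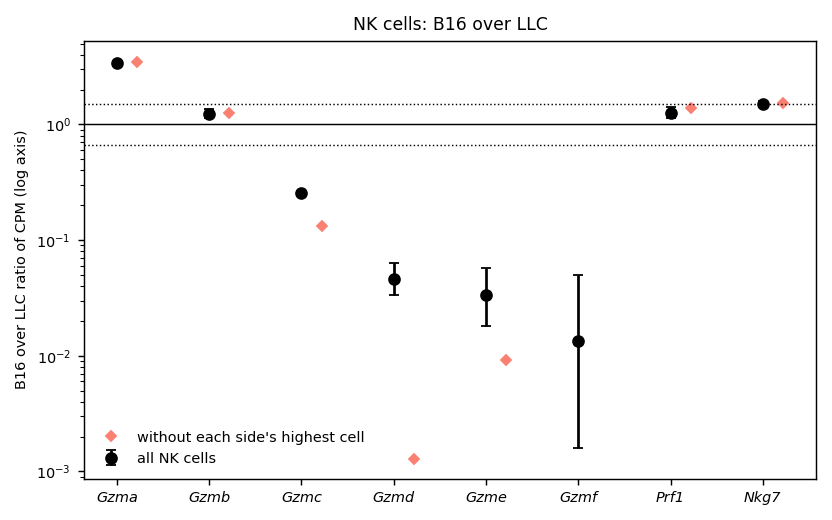
Ratio of CPM in B16 NK cells over LLC NK cells for the 8 members with UMIs in both libraries, on a logarithmic axis, with exact 95% intervals of counting error. Dotted lines mark the 1.5-fold rule and diamonds the ratio without the highest cell of each side, which could not be computed for Gzmf. Gzma lies above the upper line at 3.37, Gzmb and Prf1 lie between the lines, and Gzmc to Gzmf lie below the lower line.

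Other genes of the granule pathway in NK cells did not follow a single direction. Of 12 measured granule partners and inhibitors, 1 was higher in B16 and 5 were lower. Srgn, the granzyme carrier, was at 1229 CPM in B16, against 2176 CPM in LLC, a ratio of 0.565. Ctsc, the activating protease, was at 119 CPM in B16, against 293 CPM in LLC, a ratio of 0.407. Ctsw, a cathepsin of cytotoxic lymphocytes and the 1 gene that was higher, was at 685 CPM in B16, against 457 CPM in LLC. Of 10 exocytosis genes, 1 was higher, Unc13d at 2.53, which primes granules for fusion, and 1 was lower. Srgn and Ctsc are also made by myeloid cells, and the part of such RNA in their ratios was not tested.

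Among 8 measured death ligands and cytokines, 2 were higher in B16 NK cells and 2 were lower. The chemokine Ccl4 was at 634 CPM in B16, against 97.5 CPM in LLC, a ratio of 6.50, and Ccl5 was at 7383 CPM in B16, against 2674 CPM in LLC, a ratio of 2.76. Ifng was lower in B16 at 0.485 and Ccl3 at 0.633. Of 13 transcription factors, 2 were higher and 3 lower, with Eomes, a factor of NK maturation, at 1.73 and Nfil3, needed for NK development, at 0.576. Of 9 genes of IL-2 and IL-15 signalling, 2 were higher and 3 lower, with the receptor chain Il2ra at 0.329 and the feedback inhibitor Cish at 0.616. None of 3 measured inhibitory receptors passed 1.5-fold in either direction, and of 8 proliferation genes none was higher and 3 were lower.

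The second comparison was made within B16, where the authors annotated 527 CD8 T cells-Prolif and 594 CD8 T cells in the B16 table. These annotations differ from those of the joint table, where 356 of the 527 were Prolif CD8 T cells and 170 were CD8 T cells. Of the 594, 581 were CD8 T cells there. The clusters were drawn from these same cells with all genes, so the contrast is a description of the clusters. Most members were lower in the dividing cluster, by their CPM. Gzma was higher in CD8 T cells-Prolif, Gzmb and Gzmk were within the 1.5-fold range, and Gzmc, Gzmd, Gzme, Gzmf, Prf1 and Nkg7 were lower. The summed members reached 4613 CPM in CD8 T cells-Prolif and 7759 CPM in CD8 T cells.

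Gzmf was at 185 CPM in CD8 T cells-Prolif and 813 CPM in CD8 T cells, a ratio of 0.227 (0.215 to 0.239). Gzmd was at 106 CPM in CD8 T cells-Prolif and 336 CPM in CD8 T cells, a ratio of 0.315 (0.293 to 0.339), and Gzme was at 95.2 and 267 CPM in the same order, a ratio of 0.357 (0.330 to 0.386). Gzmc was at 379 CPM in CD8 T cells-Prolif and 693 CPM in CD8 T cells, a ratio of 0.546 (0.523 to 0.570). In CPM, the chromosome 14 genes Gzmc to Gzmf were therefore all lower in the dividing cluster. Their neighbour Gzmb, at 833 CPM in CD8 T cells-Prolif and 1060 CPM in CD8 T cells, had a ratio of 0.786. In CD8 T cells, however, 5 cells held 42.9% of the Gzmc UMIs, and 5 held 48.9% of the Gzmd UMIs. Gzmc was found in 31.5% of CD8 T cells-Prolif and 24.4% of CD8 T cells, and in 12.9% and 14.9% after thinning.

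Prf1 was at 786 CPM in CD8 T cells-Prolif and 1276 CPM in CD8 T cells, a ratio of 0.616, and Nkg7 was at 2110 CPM in CD8 T cells-Prolif and 3232 CPM in CD8 T cells, a ratio of 0.653. Both ratios were near the threshold. Prf1 was at 0.676 after thinning, and Nkg7 at 0.671 without cells holding macrophage UMIs. Gzmk was at 50.5 CPM in CD8 T cells-Prolif and 63.8 CPM in CD8 T cells, a ratio of 0.792. Gzma was at 69.1 CPM (722 UMIs) in CD8 T cells-Prolif and 19.7 CPM (125 UMIs) in CD8 T cells, a ratio of 3.51 (2.90 to 4.28), and was found in 49 of 527 and 31 of 594 cells. The 5 highest cells held 69.4% of the Gzma UMIs of CD8 T cells-Prolif and 72.8% of those of CD8 T cells, so its ratio rests on few cells.

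Depth differed between these clusters, with a median of 17770 UMIs in CD8 T cells-Prolif and 9615 in CD8 T cells. After thinning to 2000 UMIs, Gzmb was found in 53.4% of CD8 T cells-Prolif and 49.0% of CD8 T cells (82.0% and 72.2% before), Prf1 in 61.0% and 66.9% (87.9% and 90.7% before), and Nkg7 in 93.2% and 99.3% (97.9% and 99.8% before). Gzmf was found in 6.08% of thinned CD8 T cells-Prolif and 12.4% of thinned CD8 T cells, against 16.7% and 17.7% before thinning. The lower level of Gzmf in dividing cells thus came with a lower share of cells at equal depth.

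Of the 9 members, 1 was higher in CD8 T cells-Prolif against 14.6% of all 10773 measured genes, and 6 were lower against 9.84%. The members' median log2 ratio was −0.70, and that of all measured genes was 0.00. All 12 proliferation genes were higher, from 2.05 for Pcna to 23.1 for Rrm2. Macrophage markers summed to 486 CPM in CD8 T cells-Prolif and 530 CPM in CD8 T cells. The 7 NK markers summed to 751 CPM in CD8 T cells-Prolif and 973 CPM in CD8 T cells.

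**Figure D3:**
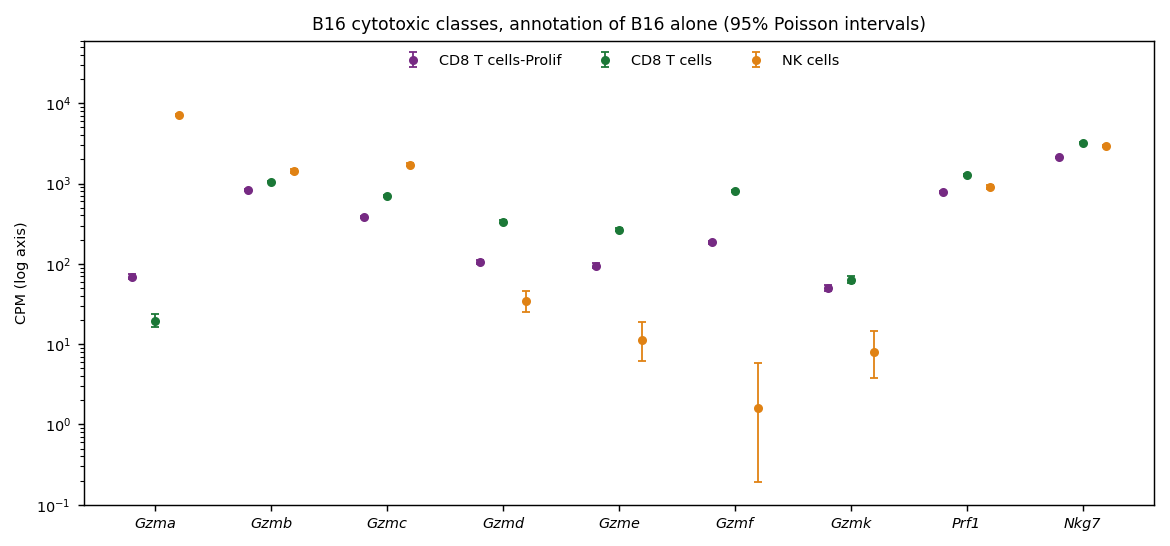
Level of each member in the 3 cytotoxic classes of the B16 table, in CPM on a logarithmic axis with exact 95% Poisson intervals, with CD8 T cells-Prolif, CD8 T cells and NK cells from left to right. Gzma is at 7120 CPM in NK cells and under 100 CPM in both CD8 classes, whereas Gzmf is at 813 CPM in CD8 T cells and 1.59 CPM in NK cells.

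Around the granule genes, partners and inhibitors were more often lower than higher in the dividing cluster. Of 15 measured partners and inhibitors, 2 were higher and 6 were lower, with the lysosomal protease Ctsl at 1.75, the serpins Serpinb6a at 0.534 and Serpinb9b at 0.563, and granzyme M (Gzmm) at 2.53 from only 25 UMIs in CD8 T cells-Prolif and 6 in CD8 T cells. Gzmg, which lies between Gzmd and Gzmf, had 20 UMIs in CD8 T cells-Prolif and 660 UMIs in 11 of 594 CD8 T cells, 248 of them in 1 cell. None of 10 exocytosis genes passed 1.5-fold in either direction. Of 11 death ligands and cytokines, 1 was higher and 3 were lower, with the chemokine Xcl1 at 1.67, Fas ligand (Fasl) at 0.623 and Ccl5 at 1376 CPM in CD8 T cells-Prolif and 3352 CPM in CD8 T cells, a ratio of 0.410. Of 7 inhibitory receptors 1 was lower, Lag3 at 0.521, and of 16 transcription factors 2 were lower, among them Nr4a3 at 0.588, and none was higher. None of 9 genes of IL-2 and IL-15 signalling passed 1.5-fold.

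The third comparison set the CD8 T cells of B16 against the NK cells of the same library. Here the members split into 3 sets. Gzmd, Gzme, Gzmf and Gzmk were higher in CD8 T cells, Gzma and Gzmc were lower, and Gzmb, Prf1 and Nkg7 were within the 1.5-fold range. Gzma was at 19.7 CPM in CD8 T cells and 7120 CPM in NK cells, a ratio of 0.00277 (0.00230 to 0.00330). Gzmf was at 813 CPM in CD8 T cells and had 2 UMIs in NK cells, a ratio of 510 (141 to 4214). These 2 genes lay at the far ends of the member list.

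Gzme was at 267 CPM in CD8 T cells and 11.2 CPM in NK cells, a ratio of 23.9 (14.2 to 43.8). Gzmd was at 336 CPM in CD8 T cells and 34.3 CPM in NK cells, a ratio of 9.80 (7.25 to 13.6), and 42 of its 43 NK UMIs were in 1 cell. Gzmk was at 63.8 CPM in CD8 T cells and 7.97 CPM in NK cells, a ratio of 8.01 (4.31 to 16.8). Gzmk was found in 36.5% of CD8 T cells and 3.32% of NK cells, and in 10.8% and 1.20% after thinning. All 3 were higher in CD8 T cells beyond the counting error.

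Gzmc was at 693 CPM in CD8 T cells and 1720 CPM in NK cells, a ratio of 0.403, but this value rested largely on 1 NK cell with 1106 UMIs. The ratio was 0.658 without the highest cell of each side, 0.781 for the mean over cells and 0.715 after thinning, so the mean over cells and the thinned value were within the 1.5-fold range. Thinned cells had Gzmc in 14.9% of both classes. Gzmb was at 1060 CPM in CD8 T cells and 1434 CPM in NK cells, a ratio of 0.739. Prf1 was at 1276 CPM in CD8 T cells and 914 CPM in NK cells, a ratio of 1.40, and Nkg7 was at 3232 CPM in CD8 T cells and 2964 CPM in NK cells, a ratio of 1.09. Gzmb was below the threshold under 3 alternative settings, at 0.553, 0.568 and 0.662.

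Of the 9 members, 4 were higher in CD8 T cells against 16.6% of all 9794 measured genes, and 2 were lower against 19.8%. The members' median log2 ratio was 0.48, and that of all measured genes was −0.08. The markers behaved as the names say, with CD8 markers at 1709 CPM in CD8 T cells and 22.3 CPM in NK cells. All 6 macrophage markers were detected in both classes, with a sum of 530 CPM in CD8 T cells and 390 CPM in NK cells.

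Partners of the granule differed in both directions between the classes. Of 15 granule partners and inhibitors, 3 were higher in CD8 T cells and 5 were lower. Serpinb6a was at 2.98 and the cystatin Cst7 at 1.83, while Gzmm was at 0.0791 (6 UMIs in CD8 T cells and 15 in NK cells), Ctsw at 0.413 and Serpinb9 at 0.541. Of 10 exocytosis genes, 6 were higher, among them Vamp8 at 2.18 and Rab27a, which docks granules at the membrane, at 1.83, and 2 were lower, among them Snap23 at 0.476. Of 11 death ligands and cytokines, 4 were higher, among them Ccl3 at 10.4 and Ifng at 9.57, and 4 were lower, among them Xcl1 at 0.125 and Fasl at 0.511.

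Inhibitory receptors set the classes apart in 1 direction. Of 7 measured inhibitory receptors, 6 were higher in CD8 T cells and none was lower, with Havcr2 at 34.8, Pdcd1 at 29.0 and Lag3 at 15.3. Of 16 transcription factors, 5 were higher, among them Nr4a2 at 11.0 and Tox at 7.49, which are linked to T cell dysfunction, and 6 were lower, among them Tcf7 at 0.0968 and Eomes at 0.287. Of 9 genes of IL-2 and IL-15 signalling, 1 was higher, Il2ra at 2.13, and 2 were lower, Socs2 at 0.134 and Jak1 at 0.443. Of 12 proliferation genes, 11 were higher in CD8 T cells.

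Levels over a class can come from many cells or from few. In each class below, a minority of cells held a UMI of the rodent granzymes, and the largest share was in NK cells of LLC. No UMI of Gzmc, Gzmd, Gzme or Gzmf was found in 63.4% of CD8 T cells-Prolif, 68.2% of CD8 T cells and 80.8% of NK cells of B16, and in 54.2% of NK cells of LLC. All 4 together were found in 21 of 527 CD8 T cells-Prolif (3.98%), 32 of 594 CD8 T cells (5.39%), 0 of 271 NK cells of B16 and 1 of 131 NK cells of LLC (0.763%). The 0 of 271 allows a share of up to 1.35% of cells with UMIs of all 4 at a median depth of 3973 UMIs, and sets no limit on cells that express them. In LLC, 15 of 131 NK cells (11.5%) held 3 of the 4, which in B16 was true of 1 NK cell. Cells with more of the genes were also deeper, with a median of 17265 UMIs in CD8 T cells with all 4 and 8995 in those with none.

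**Figure D4:**
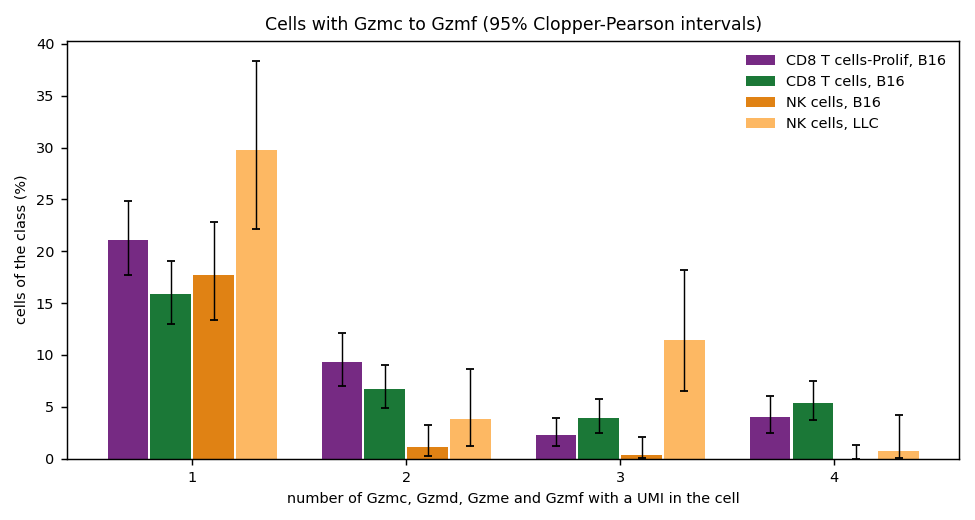
Share of cells, in percent, in which 1, 2, 3 or all 4 of Gzmc, Gzmd, Gzme and Gzmf had a UMI, as bars from 0 for CD8 T cells-Prolif, CD8 T cells and NK cells of B16 and for NK cells of LLC. CD8 T cells reach 5.39% for all 4 genes, whereas NK cells of LLC reach 11.5% for 3 genes and 0.763% for 4.

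Detection of 1 gene went with detection of its neighbours. Among CD8 T cells of B16, Gzme was found in 46 of 57 Gzmd-positive cells (80.7%) and in 3.35% of Gzmd-negative cells, and Gzmb was found in 104 of 105 Gzmf-positive cells (99.0%) and in 66.5% of Gzmf-negative cells. Prf1 was found in 96.3% of Gzmb-positive and 76.4% of Gzmb-negative CD8 T cells. Among NK cells of LLC, all 20 Gzmd-positive cells had Gzmc, against 36.0% of Gzmd-negative cells. Deeper cells detect more of every gene, and the share owed to depth was not tested. For Gzmd and Gzme, the share owed to reads matching both genes was not tested either.

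Gzma and Gzmc went the other way within NK cells. In B16, Gzmc was found in 12.4% of 217 Gzma-positive NK cells and in 40.7% of 54 Gzma-negative NK cells. In LLC, it was found in 31.9% of 72 Gzma-positive and 62.7% of 59 Gzma-negative NK cells, and Gzmd in 4.17% and 28.8%. The correlation over cells between Gzma and Gzmc was −0.260 in B16 NK cells and −0.453 in LLC NK cells. Between Gzmd and Gzme, whose transcripts are alike, it was 0.852 in LLC NK cells. These describe cells of 1 library each and carry no test. Gzmb did not share this opposition, being found in 80.6% of Gzma-positive and 35.2% of Gzma-negative NK cells of B16.

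Outside NK cells, cells annotated as naive T cells showed another mix. Gzma was at 266 CPM in B16, against 611 CPM in LLC, a ratio of 0.435 (0.380 to 0.499), and was found in 8.48% and 13.5% of cells. Gzmb was at 205 CPM in B16, against 328 CPM in LLC, a ratio of 0.626 (0.525 to 0.751), and was found in 157 of 743 and 37 of 185 cells. Without the highest cell of each side the Gzma ratio was 0.533 and the Gzmb ratio 0.746, which is within the 1.5-fold range. Gzmc had 120 UMIs in B16 and 5 in LLC, a ratio of 3.80 (1.58 to 11.9), but 84 of the 120 were in 1 cell, and without the highest cell of each side the ratio was 1.89, from 36 and 3 UMIs. Nkg7 was at 1300 CPM in B16, against 908 CPM in LLC, a ratio of 1.43, and was found after thinning in 68.6% and 53.7% of cells. Prf1 was at 48.6 CPM in B16, against 43.8 CPM in LLC, a ratio of 1.11.

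With all cells counted, of 5 measured members in naive T cells 1 was higher in B16 against 11.4% of all 8400 measured genes, and 2 were lower against 15.5%. The summed members were at 1904 CPM in B16, against 1901 CPM in LLC. Cd8a or Cd8b1 was seen in 312 of 743 B16 cells and 59 of 185 LLC cells of this name. Ncr1 or Klrb1c was seen in 94 of 743 and 13 of 185. All 6 macrophage markers were detected in both libraries, with a sum of 457 CPM in B16, against 1235 CPM in LLC. All 4 neutrophil markers were detected as well, with a sum of 587 CPM in B16, against 1788 CPM in LLC. The part of these other cells' RNA in the naive T cell values was not tested.

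B cells had enough cells in both libraries. Of 3 measured members there, 3 were higher in B16 against 17.6% of all 5397 measured genes, and none was lower. Gzma was at 238 CPM in B16, in few cells as given above, and at 0 CPM in LLC. Gzmb was at 140 and 22.5 CPM and Nkg7 at 360 and 7.51 CPM in the same order. The CD8 T cell and Treg classes had too few LLC cells to compare, and their values stand side by side. Tregs-1, with 546 B16 and 41 LLC cells, held Gzmb at 1145 CPM in B16, against 3238 CPM in LLC, and Gzmb was found in 71.4% and 70.7% of cells. Nkg7 was at 1274 CPM in B16 Tregs-1 and 236 CPM in LLC Tregs-1. Gzmb made up 44.5% of the members' UMIs in B16 Tregs-1 and 92.2% in LLC Tregs-1. The 4 LLC cells annotated as CD8 T cells held 620 Gzmf UMIs, of which 582 were in 1 cell, and 357 Gzmc UMIs, of which 339 were in 1 cell. The 11 LLC Prolif CD8 T cells held 197 Gzma UMIs, of which 154 were in 1 cell.

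The background was read in non-lymphoid classes. Monocytes and macrophages held 75.2 CPM of all members together in B16 (2742 cells) and 5.21 CPM in LLC (9194 cells). Nkg7 was at 34.4 CPM in B16, against 1.29 CPM in LLC, with a UMI in 14.2% and 0.653% of cells at median depths of 10188 and 6944 UMIs, and in 3.85% and 0.188% after thinning. Gzma was at 14.8 CPM in B16, against 1.01 CPM in LLC, Gzmb at 10.9 and 0.909 CPM, Prf1 at 6.76 and 0.312 CPM, and Gzmc at 3.83 and 1.38 CPM. The share of macrophages with a UMI was 2.63% in B16 and 0.446% in LLC for Gzma, 5.25% and 0.620% for Gzmb, 3.90% and 0.228% for Prf1, and 2.48% and 1.14% for Gzmc. The NK shares of these genes given above were over these values in both libraries, with Gzmc in B16 the nearest. Gzma in B16 CD8 T cells came closer to background, with a UMI in 5.22% of cells and in 1.53% after thinning, against 0.777% of thinned B16 macrophages. These B16 macrophage levels were under those of B16 NK cells for these genes, but Gzma at 14.8 CPM was near the 22.1 CPM of B16 CD8 T cells. A share at or below 14.2% for Nkg7 in B16 cells is read as background. All 7 measured members were higher in B16 macrophages and none was lower, against 11.9% of all 11261 measured genes in either direction.

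In macrophages and dendritic cells this background was lower without cells holding a CD3 or Ncr1 UMI, and in neutrophils it was nearly unchanged. The source of the background and the part of depth in these changes were not tested. Without the 6% of barcodes with the highest doublet scores in each library, the macrophage sum was 50.7 CPM in B16, against 4.57 CPM in LLC, and without cells holding a CD3 or Ncr1 UMI it was 22.9 CPM in B16, against 3.71 CPM in LLC. Dendritic cells held 160 CPM in B16, against 5.92 CPM in LLC, and 21.5 CPM in B16, against 3.03 CPM in LLC without CD3 or Ncr1 cells. Neutrophils, 299 cells in B16 and 1955 in LLC, held 72.5 CPM in B16, against 17.2 CPM in LLC, and 70.02 CPM in B16, against 17.3 CPM in LLC, without CD3 or Ncr1 cells. T cells and NK cells were a larger share of the B16 library than of the LLC library, as the class sizes above show. Whether this bears on the background was not tested.

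**Figure D5:**
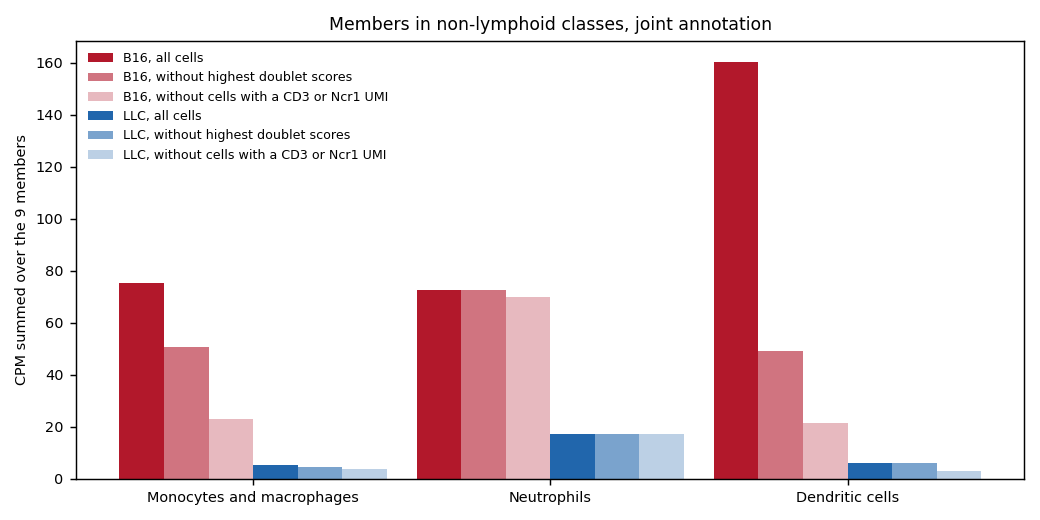
Summed level of the 9 members in monocytes and macrophages, neutrophils and dendritic cells, in CPM with B16 left of LLC, for all cells, without the highest doublet scores and without cells holding a CD3 or Ncr1 UMI. B16 macrophages go down in steps over 75.2, 50.7 and 22.9 CPM, LLC macrophages lie at 5.21 CPM or less throughout, and neutrophils stay level in both libraries.

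The table of monocytes and macrophages added the LLC CITE-seq library, whose mice share the strain of the B16 mice. Its comparisons share libraries, so they are not independent of each other. For this table alone, 6 of 6 measured members were higher in B16 over LLC, against 11.9% of measured genes, and none was lower, against 11.8%. Nkg7 was at 11.7 CPM in B16, 1.30 CPM in LLC CITE-seq and 0.566 CPM in LLC, and Prf1 was at 3.15 CPM in B16, 0.228 CPM in LLC CITE-seq and 0.259 CPM in LLC. Gzma was at 3.87 CPM in B16, 2.12 CPM in LLC CITE-seq and 0.630 CPM in LLC, and Gzmb at 3.71, 1.10 and 0.824 CPM in the same order. Of 5 measured members, all 5 were higher in B16 over LLC CITE-seq, against 11% of measured genes, and none was lower, against 9.93%. For LLC CITE-seq over LLC, 2 were higher against 3.03% and 1 was lower against 2.81%. A single B16 cell held 44 of the 96 Gzma UMIs. Without the highest cell of each side, Gzma was at a ratio of 1.15 over LLC CITE-seq, within the 1.5-fold range, against 1.83 with all cells, while Gzmb, Gzmc, Prf1 and Nkg7 stayed higher at 3.36, 3.05, 14.2 and 9.66. In B16 over LLC, Gzmc was likewise within the range at 1.46, against 1.54 with all cells.

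Across 35 combinations of class and library, the genes with the most similar pattern were looked up for each member. Likeness was Pearson's r of log2(CPM + 1) between the member and each of 5718 genes that reached 50 CPM in some combination, and the points share libraries and depth. Gzma was most like Klrb1c (0.911) and Ncr1 (0.900), both NK receptors. Gzmb was most like Sh2d2a (0.974) and the IL-2 receptor chain Il2rb (0.971), and Nkg7 most like Thy1 (0.974) and Il2rb (0.970). Gzmd and Gzme were most like Nrgn (0.840 and 0.828) and Eomes (0.830 and 0.780), Gzmc like Styk1 (0.889) and Crtam (0.880), Gzmf like Nrgn (0.775), and Prf1 like Il2rb (0.934) and Ifng (0.932). For Gzmk no gene is named, because the genes nearest to it were, like Gzmk, listed at 0 in the LLC library, which by itself raises r. Between members, Gzmb with Nkg7 (0.976) and Gzmd with Gzme (0.968), whose transcripts are alike, were closest. Gzma with Gzmf (0.415) were farthest apart.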

How the data were processed

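Cell Ranger and the mm10 build are named in the submitters' processing notes, without a version. The authors deposited whole-number UMI counts per gene and cell after filtering, with cell names from their own annotation, which were used as they stand. Which strand and which end of the RNA were read, the cell filters, any sorting and any removal of doublets are not stated in the labels. The members and the gene lists were chosen with earlier results of these data known. Each group had 1 library, so levels, ratios and shares have exact Poisson, conditional binomial and Clopper-Pearson intervals and no test. Ratios needed at least 20 UMIs over both sides, comparisons between libraries at least 50 cells in each, and a count of 0 allows 3 counts. All 9 members are named, and from each of 7 lists the genes farthest past 1.5-fold, up to 3 per side. Doublets were kept, because the caller marked 3 B16 and 1 LLC cells, and the 6% of cells with the highest scores were left out only as an alternative. Barcodes shared between libraries (29 in the joint table, and 18, 6 and 5 per pair in the macrophage table) were kept. No per-sample columns were left unmapped (0), and the antibody tags were not used. Other settings tried were median-of-ratios scaling, means over cells, thinning to 2000 UMIs, and leaving out doublet scores, cells with macrophage or CD3 UMIs or the highest cell. The ratio routine was run on Poisson counts simulated with known folds for NK cells. Those counts hold no clumping of UMIs in single cells, so the run says nothing on intervals of clumped genes. Tools were Python 3.11.15, numpy 2.4.6, scipy 1.17.1, pandas 2.3.3, scanpy 1.11.5 for doublet scores and matplotlib 3.10.9.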

Additional observations from a re-analysis of the deposited data

Results flagged for a closer look

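With all cells counted and no thinning, the ratio of B16 over LLC differed in direction between NK cells and naive T cells for 2 granzymes. Gzma had a ratio of 3.37 in NK cells and 0.435 in naive T cells. Gzmc had a ratio of 0.254 in NK cells and 3.80 in naive T cells, and that second value in naive T cells rested on 120 B16 UMIs, of which 84 were in 1 cell. Without the highest cell of each side the naive T cell ratios were 0.533 for Gzma and 1.89 for Gzmc. The difference between the classes was not tested, since each class has 1 library per tumour.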

How the results depend on the processing

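No paired analysis was possible because each group has 1 library, and for the same reason no replicate could be left out. In NK cells, 62 of 68 alternative values kept the call of B16 over LLC, 6 changed it and 0 reversed. The number of members higher in B16 was 2 as reported and 1 under median-of-ratios scaling, the mean over cells, thinning, and without the highest doublet scores, macrophage-UMI cells or CD3-UMI cells, since Nkg7 left the list each time. The median log2 ratio of all measured genes in NK cells was 0.10. For CD8 T cells-Prolif over CD8 T cells, 70 of 72 values kept the call, and for CD8 T cells over NK cells 75 of 80 did, with 0 reversed in both. Gzmf in NK cells gave no value without the highest cell, without doublet scores, without macrophage-UMI cells or after thinning. Summed background without the highest doublet scores was 50.7 CPM in B16 and 4.57 CPM in LLC macrophages and 49.0 CPM in B16 dendritic cells. Without CD3 or Ncr1 cells it was 22.9 CPM in B16 and 3.71 CPM in LLC macrophages, and 21.5 CPM in B16 and 3.03 CPM in LLC dendritic cells. Leaving out the highest cell of each side, chosen after seeing the data, was also run for naive T cells and macrophages and ended the calls of Gzmb in naive T cells (0.746), Gzmc in B16 over LLC (1.46) and Gzma in B16 over LLC CITE-seq (1.15) in the macrophage table. The cause of these changes was not tested. Depth limits shares of cells, and 131 LLC NK cells limit every LLC value.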
